A study of Sparus aurata with 9 samples.

Results

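miR-21 was the most abundant miRNA of cultured gilthead sea bream (Sparus aurata) myoblasts, and its entries in the deposited table are described here across 3 culture conditions. An entry was taken as miR-21 when the number in its name, after the species prefix, was exactly 21, with any letter, arm or variant suffix, and identical sequences were counted once. This gave 6 entries of 862 in the table, which holds 830 distinct sequences. The members were chosen by name, and miR-21 itself was selected on its level in these libraries, so its level and rank are a description with no test. Letters mark related genes: under that name, miR-21b is in the table by its 3p strand alone. Small RNA was sequenced from primary muscle cells isolated from fast-twitch muscle and grown to day 8, in 9 libraries. In the AA group (n = 3), the cells spent 12 h in the restriction medium and then 24 h with amino acids. In the IGF1 group (n = 3), they spent 12 h in the restriction medium and then 24 h with insulin-like growth factor 1. The CTR group (n = 3) stayed in the restriction medium for 36 h. The study describes the restriction medium as free of amino acids, with salts, vitamins and glucose, the AA medium as DMEM, and the IGF1 medium as the restriction medium with the growth factor and albumin as its carrier. Amino acids therefore cannot be told apart from the other components of DMEM, nor the growth factor from its carrier. The cells are a primary culture and no clonal line, and the study describes 3 independent cultures. No label ties a library to a culture, so the libraries were fitted without pairing, and where libraries of different groups came from 1 culture they are not independent of each other. In such bulk libraries, fewer cells of a type and less RNA per cell cannot be told apart.

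miR-21 is a conserved vertebrate miRNA. Its hairpin precursor is cut into a duplex of a 5p strand and a 3p strand, and the strand loaded into Argonaute, the guide, is the 5p strand in most tissues studied, while the 3p strand, the passenger, is mostly degraded. A guide pairs with target mRNAs mainly through its seed, bases 2 to 8. In mammals, guide targets include Pdcd4, an inhibitor of translation initiation. In mammalian muscle the miRNA is best known from fibroblasts during fibrosis, where it rises with TGF-beta signalling.

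The 6 sequences are shown because the results turn on which strand and which seed each entry has. They are the deposited sequences, 5′ to 3′, written with T for U, and capitals mark the seed.
miR-21: tAGCTTATcagactggtgttggc
miR-21_R-1_1ss22GA: tAGCTTATcagactggtgttga
miR-21_R+2: tAGCTTATcagactggtgttggcat
mir-21-1-p3: cAACAGCGgtctgtaagctggc
miR-21b-3p: cGACAACAgtctgtaggctgtc
miR-21a-2-3p_R+1_1ss16AG: cGACAACAgtctgtaggctgtct

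The first 3 are 5p strands and shared 1 seed, which no other entry of the table had. miR-21_R-1_1ss22GA was 22 nt long, 1 base shorter than the 23 nt of miR-21, with the substitution G22A, counted from 1 at the 5′ end of miR-21. miR-21_R+2 was 25 nt long and continued miR-21 by 2 bases. The other 3 are 3p strands. mir-21-1-p3 was the only entry with its seed. miR-21b-3p had another seed, which besides its longer form only 1 predicted candidate with no miRBase name had. It matched mir-21-1-p3 at 17 of 22 positions when aligned without gaps, with 7 bases as the longest shared run. miR-21a-2-3p_R+1_1ss16AG was miR-21b-3p with 1 more base at the 3′ end. The names of the 3p entries come from precursors of tilapia (mir-21-1-p3) and salmon (the others), and those of the 5p entries from tilapia (miR-21) and zebrafish (the others). A 5p sequence alone does not show which hairpin it was cut from. Folded with miR-21 by RNAduplex, each 3p strand paired at 19 bases, with a predicted energy of -27.7 kcal/mol for mir-21-1-p3 and -25.0 kcal/mol for miR-21b-3p. This energy is a computed property of the letters and no measurement of the duplex.

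The libraries differed in depth, with 9766620 to 11214788 inferred reads in AA, 7241678 to 9534840 in IGF1 and 7045311 to 8010694 in CTR. The number of reads was inferred from the step that made the most low values whole. Each total adds a sequence once for each of its names. The table gives normalized reads, which the authors had already scaled between libraries. No miR-21 entry was at 0 in any library. The lowest inferred number of reads behind a value was 2354424 for miR-21, in library CTR 1, and 29 for miR-21a-2-3p_R+1_1ss16AG in CTR 2, so that counting error alone was 0.0652% of the first and 18.6% of the second value. The cells were labelled as muscle cells, and the muscle miRNAs miR-1, miR-133, miR-206 and miR-499 were all listed, with a summed level of 706521 to 850728 normalized reads in AA, 493552 to 634775 in IGF1 and 498012 to 697074 in CTR.

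miR-21 was at 2627904, 2675428 and 2906105 normalized reads in AA libraries 1 to 3, 2434250, 2654559 and 2836548 in IGF1 libraries and 2843156, 2892323 and 2804600 in CTR libraries. It was the entry with the highest mean, and the 3 groups overlapped. Its share of all normalized reads averaged 31.1% ± 0.978 in AA, 30.8% ± 2.58 in IGF1 and 32.9% ± 1.11 in CTR (SD, n = 3 each), and ran between 29.1% and 33.8% over the 9 libraries. The total behind the shares in this paragraph adds a sequence once for each of its names. With identical sequences counted once, the share of miR-21 averaged 32.5% in AA, 32.2% in IGF1 and 34.4% in CTR, and ran between 30.4% and 35.4%. The next entry, miR-146_R+1, known in mammals as an NF-kappaB-induced miRNA of innate immunity, held 17.5% ± 0.962 in AA, 17.2% ± 3.54 in IGF1 and 13.9% ± 2.69 in CTR. miR-21 was between 1.49 and 2.86 times as abundant as miR-146_R+1 in the same library, so that the first place did not change in any library. The distinct sequences that followed were miR-22b_R+1 with a mean share of 8.25%, miR-206, a muscle-specific miRNA, with 6.30%, and miR-199-5p_R+1 with 1.87%. The group means of miR-21 were in the order CTR, AA and IGF1, and neighbours in this order did not differ beyond their spread in the limma comparisons given further on.

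The other 2 guide entries were far lower. miR-21_R-1_1ss22GA was at 23648, 23528 and 19844 normalized reads in AA, 16992, 21090 and 19005 in IGF1 and 27663, 22486 and 21070 in CTR. IGF1 and CTR overlapped only between 21070 and 21090, and AA overlapped with both. miR-21_R+2 was at 2542, 2830 and 3600 normalized reads in AA, 2515, 2858 and 3005 in IGF1 and 3673, 3058 and 2837 in CTR. In every library miR-21 held between 98.9% and 99.2% of all 5p reads of the 3 entries.

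The 3p strands varied far more between libraries than the guide did. mir-21-1-p3, the most abundant of them, was at 20202, 14129 and 13469.5 normalized reads in AA, 15857, 7066 and 9879 in IGF1 and 12137, 3350 and 4859 in CTR. Every AA library was above every CTR library, while IGF1 overlapped with both groups. miR-21b-3p was at 11425, 3863 and 1842 normalized reads in AA, 10016, 2542 and 1329 in IGF1 and 8474, 1088 and 1527 in CTR. Its library numbered 1 was the highest of each group, and the groups overlapped. miR-21a-2-3p_R+1_1ss16AG, the longer form of miR-21b-3p, was at 526, 150 and 63.7 normalized reads in AA, 603, 128 and 73.1 in IGF1 and 543, 33.5 and 67.6 in CTR. It had the same order of libraries as miR-21b-3p in every group, with the library numbered 1 on top. By mean, the order of the 6 entries was miR-21, miR-21_R-1_1ss22GA, mir-21-1-p3, miR-21b-3p, miR-21_R+2 and miR-21a-2-3p_R+1_1ss16AG. Over the 9 libraries the ranges of miR-21_R-1_1ss22GA and mir-21-1-p3 overlapped, as did those of mir-21-1-p3 and miR-21b-3p and of miR-21b-3p and miR-21_R+2.

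**Figure D1:**
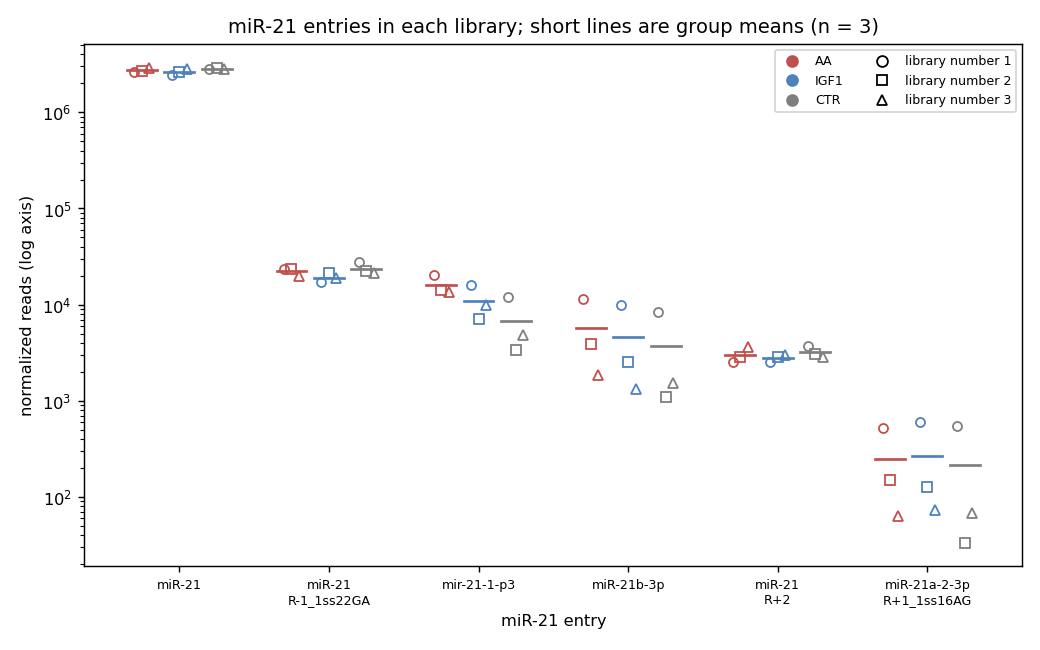
Normalized reads (log axis) of the 6 miR-21 entries in each library, with AA, IGF1 and CTR from left to right for each entry, open symbols for library numbers 1 to 3 and short lines for group means (n = 3). The guide miR-21 lies between 2434250 and 2906105 in all libraries, while miR-21b-3p lies between 1088 and 11425 with the library numbered 1 on top in each group.

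Together, the 3 passenger entries made up 1.20%, 0.667% and 0.522% of all miR-21 reads in AA, 1.07%, 0.362% and 0.393% in IGF1 and 0.731%, 0.153% and 0.228% in CTR. The library numbered 1 had the largest passenger share in each group. mir-21-1-p3 was above miR-21b-3p in every library, with log2 ratios of 0.82, 1.87 and 2.87 in AA, 0.66, 1.48 and 2.89 in IGF1 and 0.52, 1.62 and 1.67 in CTR. This ratio was lowest in the library numbered 1 of each group, so miR-21b-3p exceeded its level in the other libraries by a larger factor there than mir-21-1-p3 did.

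The spread between libraries of the same group was measured as the SD of log2(normalized reads + 1) within groups. For miR-21 it was 0.08, against a median of 0.23 over the 175 tested entries with a mean of at least 1000 normalized reads, and it was the 4th lowest of them. For miR-21_R-1_1ss22GA it was 0.17 and for miR-21_R+2 0.20. The passengers were at the other end of the scale. miR-21b-3p had an SD of 1.47, the 2nd highest of the 175, and mir-21-1-p3 had 0.67, the 6th highest. miR-21a-2-3p_R+1_1ss16AG, with a mean below that limit, had 1.74, at percentile 98.0 of the 594 entries tested.

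**Figure D2:**
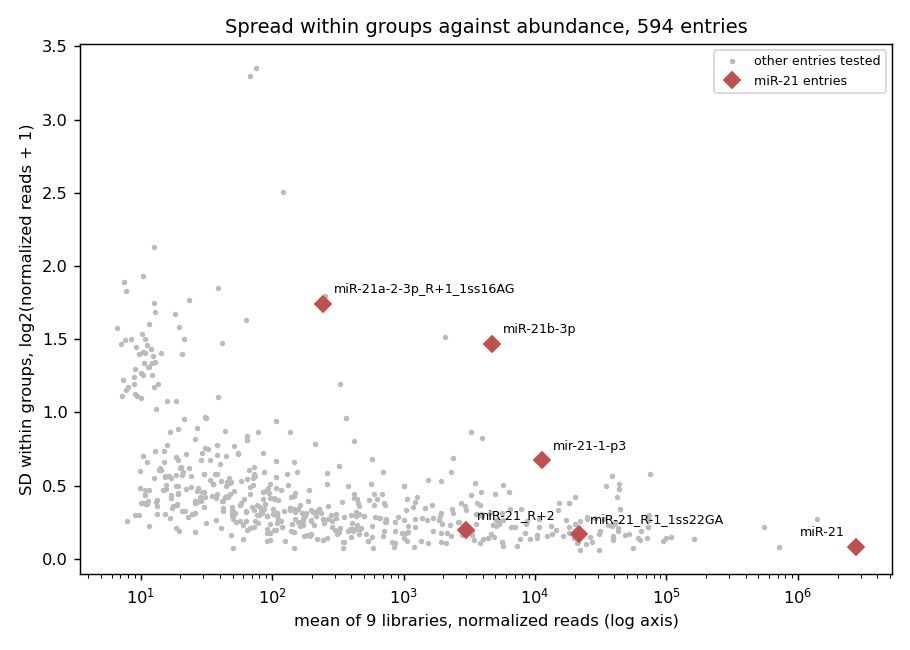
SD within groups of log2(normalized reads + 1) against the mean of 9 libraries (log axis) for the 594 entries tested, with the 6 miR-21 entries as red diamonds and the other entries as grey points. The guide miR-21 has the highest mean and an SD of 0.08, and the 3 passenger entries lie between 0.67 and 1.74.

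Much of the passengers' spread followed the library number. All 3 passenger entries were highest in the library numbered 1 of each group, and none of the 3 guide entries was. Over the 594 entries tested, 86 (14.5%) were highest in the library numbered 1 of every group. Other values moved with these libraries as well. The blood miRNAs miR-142, miR-144, miR-223 and miR-451, 4 of a list of 5 (miR-150 was not listed), summed to 1586 to 2425 normalized reads in AA, 1719 to 2742 in IGF1 and 1519 to 2452 in CTR, each time with the library numbered 1 on top. In this list miR-142_R+1, known from blood cells, was at 1191, 604 and 507 normalized reads in AA, 1126, 566 and 525 in IGF1 and 798, 394 and 522 in CTR, and miR-144a, an erythroid miRNA, was at 0 in 5 of 9 libraries. In AA, miR-223_R+1 (964, 772 and 1019) and miR-451_R+1 (266, 200 and 277) were highest in library 3. In IGF1 and CTR, both were highest in the library numbered 1. The summed muscle list was lowest in the library numbered 1 of each group. Depth was highest in the library numbered 1 of AA and IGF1 and lowest in that of CTR. The part of blood cells, of the muscle share and of depth in the passengers' levels was not tested.

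Whether amino acids changed miR-21 was asked with limma on log2(normalized reads + 1) over all 594 entries that had at least 10 normalized reads in at least 3 libraries. All 6 miR-21 entries were among them, and an entry was called at a Benjamini-Hochberg adjusted p of at most 0.05. Between AA and CTR, 14 entries (2.36%) were called by limma, 11 of them higher in AA (9 of 16 under quantile normalization and 10 of 15 with libraries rescaled to the same total without miR-21), and none was a miR-21 entry. The guide differed by a limma log2 fold change of -0.06 (adjusted p = 0.724, SE 0.08), with a 95% confidence interval from -0.24 to 0.12, that is, a fold between 0.849 and 1.09. The 22 nt and 25 nt guide forms had log2 fold changes of -0.08 (SE 0.15) and -0.10 (SE 0.17), with limma adjusted p of 0.794 and 0.793. mir-21-1-p3 averaged 15933 ± 3711 normalized reads in AA and 6782 ± 4699 in CTR (SD, n = 3 each). Its log2 fold change was 1.43 (SE 0.44, 95% confidence interval 0.43 to 2.42), a fold of 2.69. It was higher in AA in 3 of 3 same-numbered libraries, which follows from the lack of overlap and adds nothing to it. The limma p was 0.00957 and the adjusted p 0.145, so the difference did not pass the threshold. An unadjusted p under 0.05 was had by 98 entries (16.5%), and 75 entries (12.6%) had every AA library above every CTR library. The adjusted p of mir-21-1-p3 was 0.00936 without library CTR 1, 0.00805 without the 3 libraries numbered 1, 0.00321 with a weight estimated for each library and 0.00538 with the replicate number as a block. Over all alternatives this adjusted p lay between 0.00321 and 0.391. CTR 1 held the highest CTR value of the entry, so leaving it out had to widen the difference. The block pairs libraries by number, and same-numbered AA and CTR libraries correlated only at -0.115 to 0.266. miR-21b-3p and miR-21a-2-3p_R+1_1ss16AG had log2 fold changes of 0.84 (SE 0.95) and 0.67 (SE 1.12), with limma adjusted p of 0.678 and 0.788. Their confidence intervals, -1.28 to 2.96 and -1.84 to 3.18, included changes of either direction. miR-21b-3p too was higher in AA in 3 of 3 same-numbered libraries. The share of all entries tested with 3 of 3 is not given here for any comparison.

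Some marker lists of cell types also differed between AA and CTR libraries. The summed muscle list was higher in every AA library than in every CTR library, with the ranges given above. The smooth muscle and fibroblast list (miR-143, miR-145, miR-199 and miR-214, all listed) summed to 280122 to 306094 normalized reads in AA and 309974 to 322833 in CTR. The epithelial list (miR-200, miR-203, miR-205 and miR-429; miR-141 was not listed) summed to 282 to 321 normalized reads in AA and 419 to 522 in CTR, and miR-122, known from liver, to 296 to 382 in AA and 508 to 601 in CTR. AA and CTR did not overlap in these 4 lists. Of the 4, only miR-122 also did not overlap between IGF1 and CTR, with 302 to 412 normalized reads in IGF1. AA and CTR overlapped in the blood list given above. miR-126, known from endothelium, also overlapped, with 95904 to 103065 in AA and 85970 to 108520 in CTR. The muscle sums lay close, with a lowest of 706521 in AA and a highest of 697074 in CTR. miR-206, the largest part of that sum, overlapped, with 571305 to 698837 in AA and 414701 to 608549 in CTR. miR-1, miR-133a_L+1R-2 and miR-499 did not overlap. miR-1 was at 52799 to 63283 in AA and 28884 to 30736 in CTR. miR-133a_L+1R-2 was at 77497 to 96256 in AA and 50288 to 60779 in CTR, and miR-499 at 3531 to 4796 and 1765 to 2946. The smooth muscle and fibroblast sums lay close as well, with a highest of 306094 in AA and a lowest of 309974 in CTR. Of all entries tested, 75 of 594 (12.6%) had every AA library above every CTR library, and the share of the reverse is not given here. The part of these lists in the difference of mir-21-1-p3 was not tested.

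Whether IGF1 changed miR-21 was asked in the same fit, with the same CTR libraries. No entry was called (0% of 594) by limma, while 61 entries (10.3%) had an unadjusted p under 0.05, and 2 were called with the replicate number as a block, neither of which was a miR-21 entry. The guide had a limma log2 fold change of -0.11 (adjusted p = 0.645, SE 0.08, 95% confidence interval -0.29 to 0.07). miR-21_R-1_1ss22GA was lower in IGF1 in 3 of 3 same-numbered libraries, with a limma log2 fold change of -0.31 (adjusted p = 0.468, SE 0.15). miR-21_R+2 had -0.19 (SE 0.17, limma adjusted p = 0.687). mir-21-1-p3 averaged 10934 ± 4490 normalized reads in IGF1 and 6782 ± 4699 in CTR (SD, n = 3 each), a limma log2 fold change of 0.83 (adjusted p = 0.553, SE 0.44) with the higher value in IGF1 in 3 of 3 same-numbered libraries. With the replicate number as a block, its SE was 0.22, its limma p 0.0038 and its adjusted p 0.118, above the threshold. miR-21b-3p had a log2 fold change of 0.42 (SE 0.95) and miR-21a-2-3p_R+1_1ss16AG of 0.72 (SE 1.12), with limma adjusted p of 0.892 and 0.821. miR-21a-2-3p_R+1_1ss16AG was also higher in IGF1 in 3 of 3 same-numbered libraries.

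Between AA and IGF1, 5 entries (0.842%) were called by limma and 52 (8.75%) had an unadjusted p under 0.05, and no miR-21 entry was in either count. The guide differed by a limma log2 fold change of 0.05 (adjusted p = 0.996, SE 0.08, 95% confidence interval -0.13 to 0.23). mir-21-1-p3 had a limma log2 fold change of 0.60 (adjusted p = 0.871, SE 0.44) and was higher in AA in 3 of 3 same-numbered libraries. The other 4 entries had log2 fold changes between -0.06 and 0.42, with limma adjusted p between 0.784 and 0.996. The guide, miR-21_R-1_1ss22GA and miR-21b-3p were also higher in AA in 3 of 3 same-numbered libraries.

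**Figure D3:**
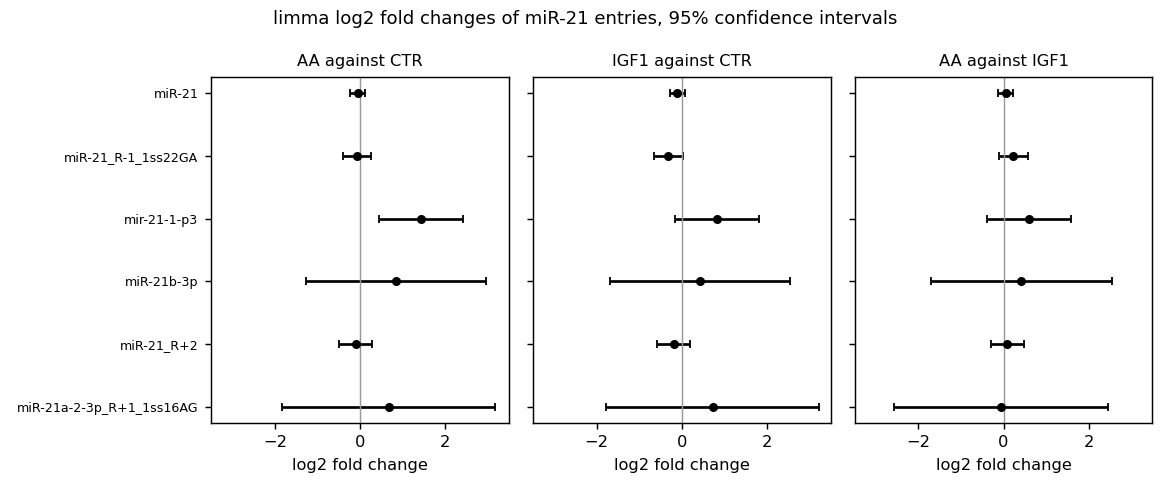
limma log2 fold changes (horizontal axis) of the 6 miR-21 entries in the 3 comparisons of AA with CTR, of IGF1 with CTR and of AA with IGF1, with 95% confidence intervals as bars. The intervals of the guide are narrow and cross 0 in each comparison, and only that of mir-21-1-p3 in AA against CTR, 0.43 to 2.42, does not cross 0.

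Ratios of entries within a library do not depend on how that library was scaled. As a percentage of miR-21, mir-21-1-p3 was at 0.769%, 0.528% and 0.463% in AA, 0.651%, 0.266% and 0.348% in IGF1 and 0.427%, 0.116% and 0.173% in CTR. The AA and CTR libraries did not overlap, and IGF1 lay between them by mean. The mean log2 ratio was 1.49 higher in AA than in CTR, 0.94 higher in IGF1 than in CTR and 0.55 higher in AA than in IGF1. The two-sided exact permutation p was 0.1 for AA against CTR, the smallest that 3 against 3 libraries can give, and 0.3 for each of the other comparisons. Over the 3 groups the exact permutation p was 0.0929, and 0.557 after adjustment over the 6 ratios computed. miR-21b-3p over miR-21 was 0.435%, 0.144% and 0.0634% in AA, 0.411%, 0.0957% and 0.0469% in IGF1 and 0.298%, 0.0376% and 0.0545% in CTR, and the 3-group exact permutation p was 0.732. The ratio of mir-21-1-p3 to miR-21b-3p had a 3-group exact permutation p of 0.714.

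Among the length variants, miR-21_R-1_1ss22GA was 0.900%, 0.879% and 0.683% of miR-21 in AA, 0.698%, 0.794% and 0.670% in IGF1 and 0.973%, 0.777% and 0.751% in CTR (3-group exact permutation p = 0.414). miR-21_R+2 stayed between 0.0967% and 0.129% of miR-21 (exact permutation p = 0.911). The longer form miR-21a-2-3p_R+1_1ss16AG was 4.60%, 3.88% and 3.46% of miR-21b-3p in AA, against 6.02%, 5.04% and 5.50% in IGF1, and 6.41%, 3.08% and 4.42% in CTR. AA and IGF1 did not overlap in this ratio, with a difference of log2 ratios of -0.48 and an exact permutation p of 0.1, the smallest possible, or 0.9 after adjustment over 18 comparisons.

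**Figure D4:**
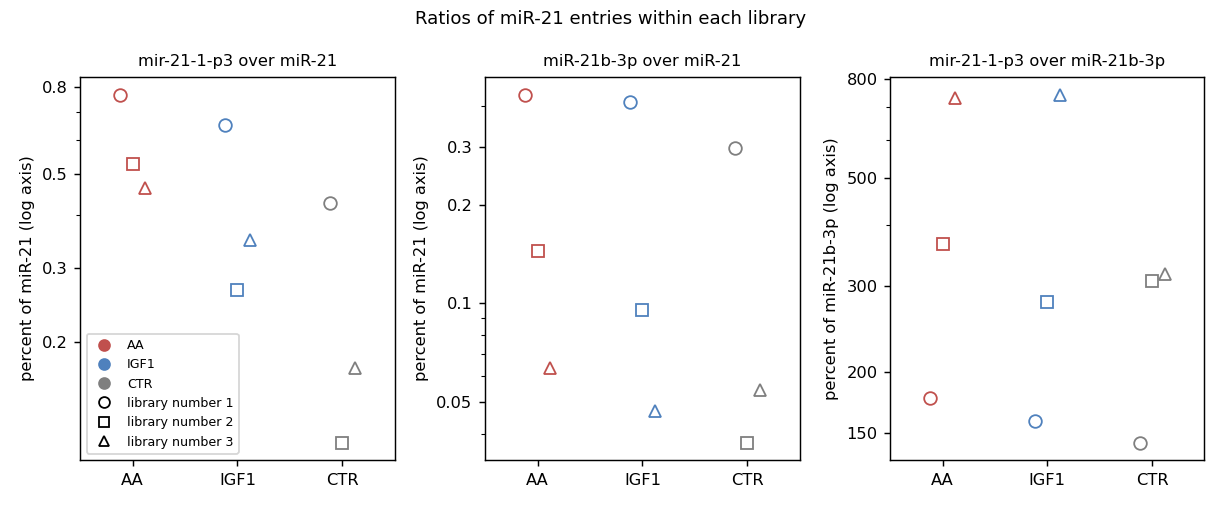
Ratios of miR-21 entries within each library, as percentages on log axes, for AA, IGF1 and CTR from left to right, with symbols for library numbers 1 to 3. For mir-21-1-p3 over miR-21, the AA libraries lie between 0.463% and 0.769% and the CTR libraries between 0.116% and 0.427%.

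Other miRNAs with entries of both strands give a yardstick for this strand difference. For 106 of them, the log2 fold change of the more abundant strand was subtracted from that of the less abundant strand. Only forms that could be assigned to a strand were used. In AA against CTR this difference was 1.49 for miR-21, with mir-21-1-p3 as the less abundant strand, against a median of 0.29 over the other miRNAs. In 4 of them, miR-1, miR-181b, miR-30e and miR-7a, it was higher. The less abundant strand averaged only 9.45 normalized reads for miR-30e and 7.24 for miR-7a. The difference was above 0 in 73 of the 106 (68.9%). In IGF1 against CTR it was 0.94 for miR-21, against a median of 0.10, with 8 miRNAs higher, and in AA against IGF1 it was 0.55 against a median of 0.13, with 15 higher. The first 2 comparisons share the CTR libraries. For miR-22b the abundant form miR-22b_R+1 was not assigned to a strand. Its pair was therefore miR-22b-5p_R+1 and miR-22b-3p_R+1, with means of 349 and 19.2 normalized reads. This yardstick sets miR-21 against its most abundant 3p entry, while reads of miR-21 may come from more than 1 hairpin, so the ratio is not that of a single duplex. In mean abundance miR-21 exceeded mir-21-1-p3 by 244 times, against a median of 19.8 times over the other miRNAs, 13 of which had a larger ratio. mir-21-1-p3 had a within-group SD 0.59 above that of miR-21, against a median of 0.11, and the less abundant strand was the wider one in 72 of the 106 miRNAs (67.9%).

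**Figure D5:**
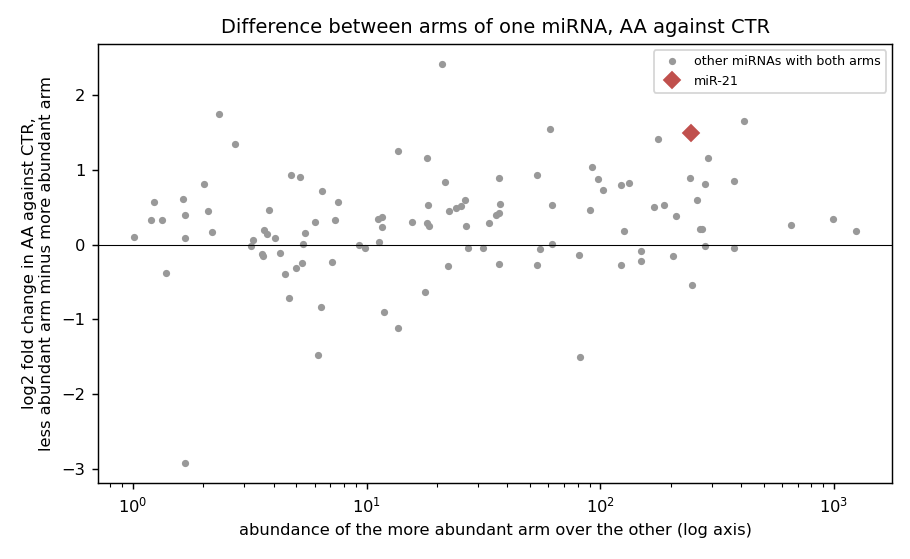
Difference between the log2 fold changes of the less and the more abundant strand in AA against CTR, plotted against the abundance ratio of the strands (log axis), for miR-21 (red diamond) and 106 other miRNAs (grey points). miR-21 lies at 1.49 with a ratio of 244, and 73 of the 106 others lie above 0.

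Across the 9 libraries, the guide and its 25 nt form miR-21_R+2 had Pearson r = 0.791 (exact permutation p = 0.00936, adjusted over 15 pairs 0.0702) and Spearman rho = 0.900 (exact permutation p = 0.00203, adjusted 0.0231). Without the 2 libraries farthest from the median of miR-21, r was 0.648. Over the 6 libraries not numbered 1, r was 0.713 (exact permutation p = 0.0806, adjusted 0.302). Over all 9 libraries, miR-21b-3p and its longer form had r = 0.982 (exact permutation p = 8.54e-05, adjusted 0.00128). mir-21-1-p3 and miR-21b-3p had r = 0.765 (exact permutation p = 0.0172, adjusted 0.0843) and rho = 0.850 (exact permutation p = 0.00607, adjusted 0.0304). For pairs with a passenger, the libraries numbered 1 stood apart, so r was also taken over the other 6 libraries only. There miR-21b-3p and its longer form had r = 0.913 and rho = 0.771 (exact permutation p = 0.0153 and 0.103), mir-21-1-p3 and miR-21b-3p had r = 0.650 and rho = 0.714 (exact permutation p = 0.167 and 0.136), and miR-21 and mir-21-1-p3 had r = -0.240 and rho = -0.09 (exact permutation p = 0.619 and 0.919). miR-21 had r = -0.809 and rho = -0.600 with miR-21b-3p (exact permutation p = 0.0569 and 0.242), and r = -0.888 and rho = -0.829 with miR-21a-2-3p_R+1_1ss16AG (exact permutation p = 0.0236 and 0.0583). None of the pairs passed adjustment over the 15 pairs in these 6 libraries, where the lowest adjusted p of r was 0.177. These permutations treat libraries as exchangeable, although they fall in 3 groups and same-numbered ones may share a culture. Entries of 1 library also share its scaling.

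The entries with the profile most like miR-21, by Pearson r of log2(normalized reads + 1) over 9 libraries among 446 named candidates, were miR-18b-3p_L+1R-2_1ss15CT (r = 0.892), miR-19d_R+1_1ss19AG (0.829), miR-222 (0.790), miR-193a-5p (0.790) and miR-365 (0.781), where the median of all candidates was -0.01. For mir-21-1-p3 they were miR-24b-5p_L-1 (r = 0.953), miR-7133_R-1 (0.953), miR-499b-3p (0.952), miR-143-5p_R-1 (0.951) and miR-216a (0.950), with a median of 0.05 over the candidates. These r values are a description, and the libraries share their scaling, depth and number with each other.

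The 4 next most abundant entries are a yardstick for the stability of the guide. Between AA and CTR their log2 fold changes were 0.37 for miR-146_R+1, -0.28 for miR-22b_R+1, 0.31 for miR-206 and -0.27 for miR-199-5p_R+1, with limma adjusted p between 0.146 and 0.347. None was called, beside 2.36% of all entries tested. Their log2 fold changes ran from -0.12 to 0.29 in IGF1 against CTR and from -0.23 to 0.43 in AA against IGF1, without a call. With libraries rescaled to the same total without miR-21, the guide was at -0.115 in AA against CTR.

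A list of miRNAs related to a known role of miR-21 in mammals was also counted. It holds 22 entries of miRNAs known in fibrosis and TGF-beta signalling (miR-24, miR-29, miR-30, miR-133, miR-199 and miR-214), all tested. None of them was called by limma, where the smallest adjusted p was 0.0689. Of all entries tested, 2.36% were called in AA against CTR, 0% in IGF1 against CTR and 0.842% in AA against IGF1. At such shares, the lack of calls is no result about the list. In that order, 1, 0 and 1 of the 22 had an unadjusted p under 0.05, beside 16.5%, 10.3% and 8.75% of all entries tested. The median log2 fold change of the 22 was 0.03 in AA against CTR, 0.31 in IGF1 against CTR and -0.17 in AA against IGF1, beside 0.08, 0.05 and -0.00 over all entries tested. In the same order, 11, 14 and 2 of the 22 had a positive log2 fold change, beside 58.1%, 54.7% and 50% of all entries tested. The most abundant, miR-199-5p_R+1, known from fibroblasts, had log2 fold changes of -0.27 (SE 0.12, limma adjusted p = 0.297) in AA against CTR and -0.23 (adjusted p = 0.658, SE 0.12) in AA against IGF1. miR-133a_L+1R-2, a muscle miRNA, had 0.65 (SE 0.16, limma adjusted p = 0.0689) in AA against CTR.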

How the data were processed

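Total RNA was made into 9 small RNA libraries, 3 per condition, from what the study describes as 3 independent cultures, and sequenced single-end. The authors kept unique sequences of 18 to 26 nt, assigned them by BLAST to miRBase precursors and deposited normalized reads, a signal per entry and library. How reads were normalized, and to which genome build, is not given in the sources used here. The authors also deposited group means, which equal the averages of the libraries, and an ANOVA p-value per entry, which was not used. Identical sequences under several names (30) were counted once among the miR-21 entries and in the summed marker lists. The limma fit, the counts over all entries tested and the ranking of spread kept every name as an entry. With identical sequences entered once, 565 entries were tested, of which 14 were called in AA against CTR.

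The members and lists were chosen with earlier results of these data known. The result of 1 further list is not reported here. limma 3.58.1 (R 4.3.3) with an intensity trend was fitted to log2(normalized reads + 1) of the 594 entries that reached 10 normalized reads in 3 or more libraries, all 9 libraries in 1 fit, and p-values were adjusted by Benjamini-Hochberg. Named entries were the miR-21 entries, the next 4 in abundance, the 5 most similar profiles of the guide and of mir-21-1-p3, called list entries or otherwise the 3 most abundant. For the strand comparison, names with several forms were assigned to a strand by at least 12 shared bases and 4 pairs were left out, a choice made after seeing the data. ViennaRNA 2.7.2 gave duplexes. The fit was tested on simulated data with independent noise for each entry and library, which does not cover libraries that deviate together.

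Reads were inferred from the step that made the most low values whole. Of values under 150, 79.3% to 83.1% per library were whole within 0.02 reads, so no count model was run. A count of 3 reads was worth 2.32 to 3.62 normalized reads. Intervals from counting cover counting error only. Same-numbered libraries of IGF1 and CTR deviated together (r between 0.301 and 0.401 over 3 pairs, each above 0.1), which pairs them by the data and not by the labels. Alternatives were another pseudocount, filter, scaling, variance model or library weights, the replicate block, fewer groups or libraries, and identical sequences entered once.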

Additional observations from a re-analysis of the deposited data

How the results depend on the processing

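With a weight per library, limma called 104 entries in AA against CTR, 5 in IGF1 against CTR and 20 in AA against IGF1, in place of 14, 0 and 5. With the replicate block the counts were 31, 2 and 10. Same-numbered libraries correlated at -0.115 to 0.266 in AA against CTR and 0.0471 to 0.351 in AA against IGF1, 2 and 5 of 6 libraries correlated best with their own number, and whether these pairs shared a culture is not given in the labels. No other call on a miR-21 entry than that on mir-21-1-p3, given next, changed with the block. Leaving out the 3 libraries numbered 1, a choice made after seeing the data, called 24, 0 and 8 entries. AA against IGF1 had 10 calls with a filter of 50 normalized reads, 3 with libraries rescaled to the same total without miR-21 and 1 without the intensity trend. Leaving out 1 library gave 8 (without AA 2) to 40 (without CTR 1) calls in AA against CTR, 0 to 2 (without CTR 1) in IGF1 against CTR and 1 (without AA 2, AA 3 or IGF1 1) to 13 (without CTR 1) in AA against IGF1. The causes were not tested.

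The log2 fold change of mir-21-1-p3 in AA against CTR was called at 1.65 with weights per library, 1.43 with the replicate block (limma adjusted p = 0.00538) and 1.77 without the libraries numbered 1, and lay between 1.03 and 1.96 with 1 library left out, with a call only without CTR 1. It was positive under every alternative run. The small differences of the other entries changed sign in places. In AA against CTR, miR-21_R-1_1ss22GA was at 0.013 with quantile normalization and 0.075 with weights per library, and miR-21_R+2 was at 0.12 without the libraries numbered 1, where miR-21a-2-3p_R+1_1ss16AG in AA against IGF1 was at 0.014. Without those libraries, the log2 ratio to miR-21 in AA against CTR was 0.02 for miR-21_R-1_1ss22GA and 0.15 for miR-21_R+2, and 0.047 for miR-21_R+2 in IGF1 against CTR. With 1 library left out, log2 fold changes ran as follows. In AA against CTR they were -0.164 to 0.033 for miR-21_R-1_1ss22GA, -0.24 to 0.01 for miR-21_R+2 and -0.16 to 1.83 for miR-21a-2-3p_R+1_1ss16AG. In IGF1 against CTR they were -0.39 to 1.33 for miR-21b-3p and -0.15 to 1.88 for miR-21a-2-3p_R+1_1ss16AG. In AA against IGF1 they were -0.005 to 0.10 for miR-21, -0.28 to 1.24 for miR-21b-3p, -0.054 to 0.196 for miR-21_R+2 and -0.86 to 0.82 for miR-21a-2-3p_R+1_1ss16AG. Differences of log2 ratios ran from -0.10 to 0.10 for miR-21_R-1_1ss22GA over miR-21, -0.139 to 0.066 for miR-21_R+2 over miR-21 and -0.43 to 0.10 for miR-21a-2-3p_R+1_1ss16AG over miR-21b-3p in AA against CTR. In IGF1 against CTR they ran from -0.34 to 1.44 for miR-21b-3p over miR-21, -0.20 to 0.91 for mir-21-1-p3 over miR-21b-3p and -0.146 to 0.031 for miR-21_R+2 over miR-21. In AA against IGF1 they ran from -0.36 to 1.24 for miR-21b-3p over miR-21, -0.33 to 0.79 for mir-21-1-p3 over miR-21b-3p and -0.062 to 0.116 for miR-21_R+2 over miR-21. Of the other fold changes and ratios of miR-21 entries under alternatives that kept all libraries, or left out those numbered 1, none changed sign or its side of the threshold. Quantile normalization gives 0 for miR-21 by construction, since it sets the highest entry of every library to the same value, and so shows no direction.

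With 3 libraries a group, an exact test of 2 groups cannot go below p = 0.1, and the passengers' spread between libraries, not counting error, sets the width of their intervals. For miR-21a-2-3p_R+1_1ss16AG, with 29 inferred reads at its lowest, counting error adds to it.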
